A study of Drosophila melanogaster with 2 samples.

Results

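Autophagy is the process by which a cell encloses part of its own cytoplasm in a double membrane, the autophagosome, and delivers it to the lysosome for breakdown. In Drosophila it is switched on by starvation and, during metamorphosis, by the steroid ecdysone in larval tissues such as the fat body, the midgut and the salivary glands. The Atg proteins work in order: a kinase complex around Atg1 starts the process, Atg9, Atg2 and Atg18a bring lipid to the growing membrane, and a pair of ubiquitin-like systems attach Atg8a to that membrane. The 10 genes described here are a list of names with no threshold on binding, drawn up with earlier results of these data known, and they cover these steps: Atg1, Atg13, Atg17 and Atg101, then Atg9, Atg2 and Atg18a, then Atg5, Atg4b and Atg8a. They are 10 of the 18164 genes annotated on the 6 chromosome arms, and all 10 are protein-coding.

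The data came from chromatin immunoprecipitation and sequencing (ChIP-seq), in which an anti-GFP antibody recovered DNA bound by CG1663, treated in the labels as a transcription factor, from flies stably carrying CG1663 with GFP at its C terminus. Whole pupae of both sexes, labelled 24 hours, gave 1 group of 2 biological replicates, numbered 1 and 3, from the same donor line, and no other condition. Neither an untagged line nor a profile of the wild-type protein was analysed here, the promoter that drives the fusion is not named in the labels, and in whole animals strong binding in few cells and weak binding in many cannot be told apart. Each replicate list and the list from both pooled held 30000 peaks. A further list had passed a threshold on the irreproducible discovery rate (IDR), which scores how well the ranks of a peak match between replicates. It held 9657 peaks, of which 307 overlapped no replicate 1 peak and 202 overlapped no replicate 3 peak. A peak is reported by its summit, the position of its highest point, and by its signal, the value that the authors' peak caller gave it relative to a control, which can be compared within a list only and ran from 170.2 to 10166 in the IDR-thresholded list, with a median of 385.1. Ranks count from 1, the strongest, positions are on build dm6 counted from 1, and read depth is unknown because peak lists hold no read totals.

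All 10 genes had at least 1 IDR-thresholded summit inside the gene or within 2 kb of it, against 40.4% of the 13945 protein-coding genes. There were 16 such summits in 105.0 kb of sequence, or 0.152 per kb, while the protein-coding genes together had 0.0790 per kb. Signals ran from 205.8 at Atg101 to 3977 near Atg5, and 13 of the 16 lay above the median of the list. Of these summits, 8 of 16 were within 500 bp of a start of the autophagy gene, and the other 8 were farther away. Without the flanks, 4 of the 10 genes (Atg1, Atg13, Atg5 and Atg8a) had a summit inside the gene, against 16.4% of protein-coding genes. The autophagy genes had a median length of 3862 bp and all protein-coding genes one of 2166 bp, so their windows were longer, and the part of length in these counts was not tested.

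**Figure D1:**
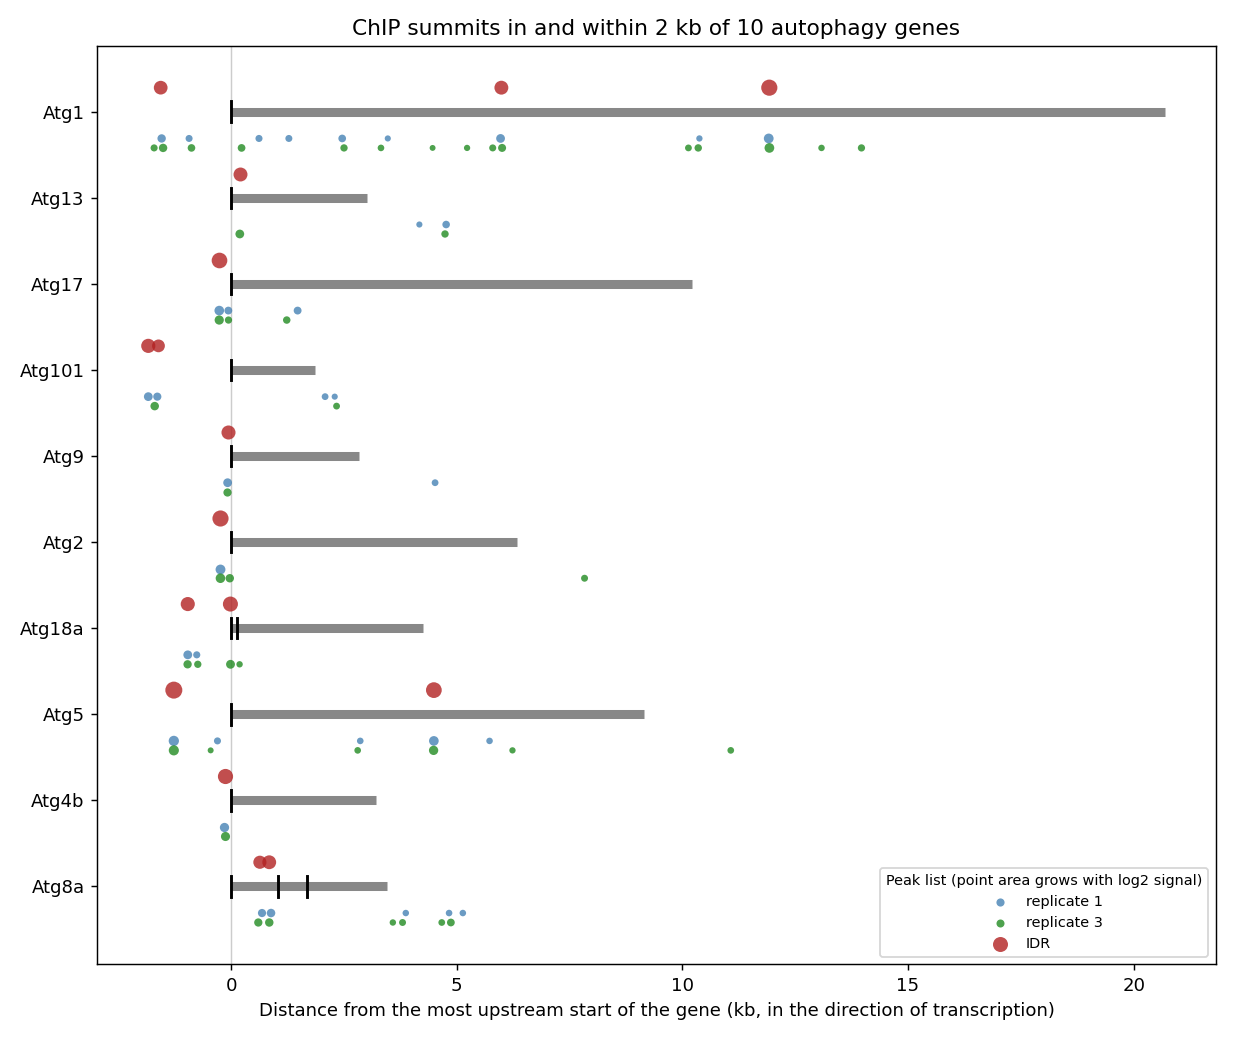
Summits in and within 2 kb of the 10 autophagy genes. Each grey bar is a gene drawn from its most upstream start in the direction of transcription (kb), black ticks are annotated starts, red points are IDR-thresholded summits, and blue and green points are summits of replicates 1 and 3, with point area growing with log2 signal; Atg1 has 3 IDR-thresholded summits and none within 500 bp of its start, while Atg2 and Atg4b have a single one just upstream.

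A summit within 500 bp of an annotated start was taken as binding at the promoter. By this measure binding was found at 7 of the 10, a share of 70.0% with an exact 95% interval from 34.8 to 93.3, while 21.5% of protein-coding genes and 18.8% of all genes had such a summit. These were Atg13, Atg17, Atg9, Atg2, Atg18a, Atg4b and Atg8a, and those without were Atg1, Atg101 and Atg5. Intervals cover counting error only, neighbouring genes can share a summit, and because of how the genes were selected no test was made. Within 200 bp of a start the count was 5 of 10 against 14.1%. Among genes with a single annotated start the counts were 5 of 8 against 15.5% of protein-coding genes. The strongest promoter summit of each bound gene lay at a median of 136 bp upstream and the median rank percentile in the list was 80.1, where 100 is the strongest peak. Over the 2995 bound protein-coding genes these medians were 153 bp upstream and 58.2. The percentiles of the 7 genes ran from 52.0 at Atg8a to 94.3 at Atg2. The median is the value of Atg18a, whose summit overlapped no replicate 1 peak. Within 200 bp of a start, which drops Atg2 and Atg17, the median percentile was 58.0, and the value over all genes at that window is not given here.

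The replicates gave different counts. With the 9657 strongest peaks of each list, replicate 1 had a promoter summit at 5 of the 10 genes (18.6% of protein-coding genes) and replicate 3 at 8 of the 10 (26.7%), a mean of 65.0% ± 21.2 (SD, n = 2). The 5 of replicate 1 were Atg17, Atg9, Atg2, Atg4b and Atg8a. Each of them was also among the 8 of replicate 3, which added Atg1, Atg13 and Atg18a. Atg1 entered by a replicate 3 peak of rank 9373, close to the cut at 9657. The replicate 1 list held no summit of any rank within 500 bp of a start of Atg1, Atg13 or Atg18a. An absence from a list is not a measure of binding. With all pooled peaks, weak ones included, 9 of 10 had a summit within 500 bp against 36.3% of protein-coding genes, and Atg101 was the one without.

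**Figure D2:**
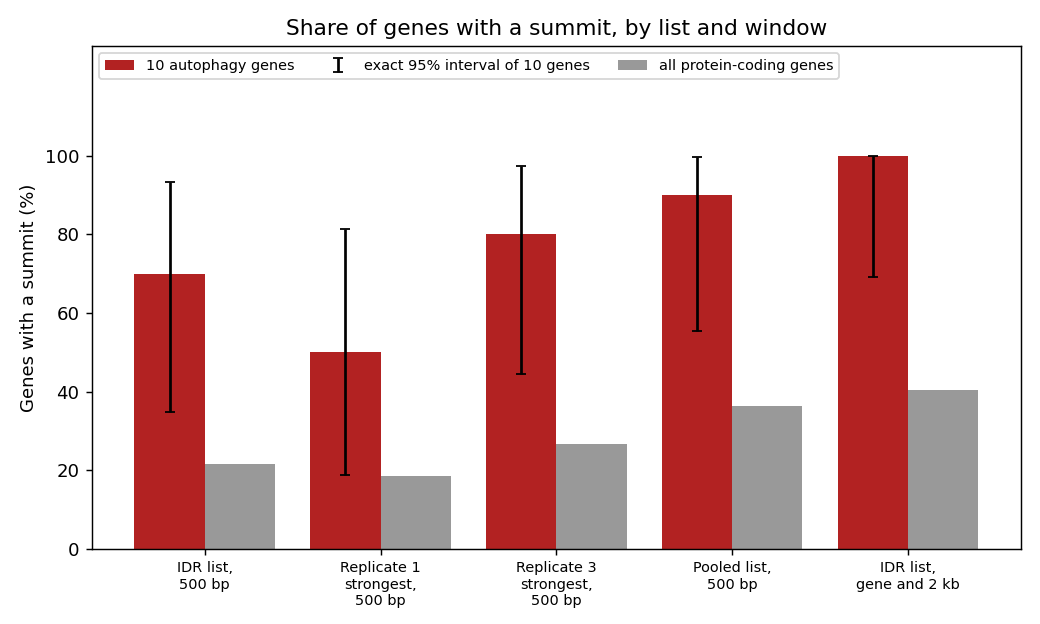
Share of genes (%) with a summit, for the 10 autophagy genes (red, with exact 95% intervals that cover counting error only) and all 13945 protein-coding genes (grey), by peak list and window. The share of the autophagy genes is 70.0% against 21.5% with the IDR-thresholded list and 500 bp, and is 50% with replicate 1 and 80.0% with replicate 3.

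Of these 10 genes, 7 start head to head with a neighbour, meaning that a gene on the other strand starts within 500 bp upstream. Among the 13945 protein-coding genes 4134 do so, and the part of this arrangement in the promoter counts was not tested. Of these 7, 6 were bound at the promoter, while 35.0% of the 4134 divergent protein-coding genes were. Of the other 3 (Atg1, Atg13 and Atg101) 1 was bound, Atg13, against 15.8% of the other protein-coding genes. In 5 of the 7 the summit lay in the stretch between both starts, at Atg17, Atg9, Atg2, Atg18a and Atg4b, so that it cannot be assigned to the autophagy gene alone. Of all 16 summits, 8 had the start of the autophagy gene as their nearest start, and 8 lay nearer to the start of another gene.

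The first step of autophagy depends on the Atg1 complex. Atg1 (FBgn0260945, minus strand of 3L, 12784429 to 12805116) encodes its serine/threonine kinase, and at 20688 bp it was the longest of the 10 genes. It had 3 IDR-thresholded summits. The strongest, with a signal of 2096 and rank 519, lay 11927 bp downstream of the start in the second intron, on a stretch where CG42709 is nested within Atg1 on the other strand. Replicate 1 placed it 13 bp away (signal 1091, rank 653 of 30000) and replicate 3 placed it 2 bp away (signal 1011, rank 363), so both replicates held the site among their strongest peaks. A second summit 5990 bp downstream, in the first intron, had a signal of 415.0 and rank 4465, with ranks 3754 and 6860 in replicates 1 and 3. The third, 1559 bp upstream (signal 371.6, rank 4996), lay in an intron of Sap130, 489 bp past its start. The bases around the first of these are shown because it is the strongest site inside the kinase gene, and none of the motifs searched occurs in them. This site and the one near Atg5 were chosen for printing after their values had been seen.
Atg1 second intron, chr3L:12793139-12793239, minus strand: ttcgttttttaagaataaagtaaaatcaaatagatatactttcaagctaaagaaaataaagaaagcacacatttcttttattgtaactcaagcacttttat

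The start of Atg1 itself held weak peaks only. The pooled list had a summit 113 bp downstream with a signal of 79.1 (rank 16341) and another 478 bp downstream with 99.5 (rank 14170). Replicate 3 had a summit 233 bp downstream of the Atg1 start with a signal of 85.8 (rank 9373), and replicate 1 had none within 500 bp, its closest being 619 bp downstream with 43.7. Over the whole gene and its flanks the pooled list held 12 summits, replicate 1 held 9 and replicate 3 held 15.

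Atg13 (FBgn0261108, plus strand of 3R, 8349815 to 8352817), the subunit that links Atg1 to nutrient signalling, was the bound gene whose summit lay downstream of its start. The IDR-thresholded summit stood 194 bp into the gene, in the 5' UTR, with a signal of 432.7 and rank 4281. Replicate 3 had it at the same base (signal 292.1, rank 2589). Replicate 1 had no peak that overlapped it, and its closest summit was 3979 bp away, beyond the end of the gene. No other gene started within 500 bp of this summit.

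Atg17 (FBgn0037363, plus strand of 3R, 5669713 to 5679930) encodes the scaffold of the complex, the counterpart of FIP200 in mammals. It had 1 IDR-thresholded summit, 270 bp upstream, with a signal of 1417 and rank 1049. Replicate 1 gave a signal of 903.8 and rank 934 and replicate 3 a signal of 511.7 and rank 1254, within 9 and 8 bp of the IDR-thresholded summit. The divergent neighbour Xe7 starts 379 bp from Atg17, and the summit was closer to Xe7, at 109 bp. Both replicates also held a weaker summit nearer to Atg17, 60 bp upstream in replicate 1 (signal 98.4) and 57 bp upstream in replicate 3 (signal 53.1), which did not enter the IDR-thresholded list. The sequence is printed as the strongest promoter site of the kinase complex.
Atg17 promoter, chr3R:5669393-5669493, plus strand: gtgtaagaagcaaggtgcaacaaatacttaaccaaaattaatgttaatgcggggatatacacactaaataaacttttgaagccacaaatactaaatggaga

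Atg101 (FBgn0030960, plus strand of X, 18791668 to 18793517) encodes a partner of Atg13 and was the shortest of the 10 genes, with 1850 bp. It lies inside S6KL, a gene for a kinase related to S6 kinase, on the same strand. Its IDR-thresholded summits lay 1834 bp (signal 500.2, rank 3704) and 1608 bp (signal 205.8, rank 8359) upstream, and these were 328 and 102 bp upstream of an internal start of S6KL. Replicate 1 resolved both, with signals of 291.3 and 141.3, while replicate 3 had a single summit between them (signal 215.0, rank 3637), 142 bp from the first and 84 bp from the second. In no list was there a summit within 500 bp of the start of Atg101. Among the 4 subunits of the complex, then, Atg17 and Atg13 had a promoter summit in the IDR-thresholded list, and Atg1 and Atg101 were near to summits that lay elsewhere.

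The second group of proteins supplies the membrane. Atg2 (FBgn0044452, plus strand of 3L, 2774338 to 2780677), a lipid transfer protein, had the strongest promoter summit of the 10 genes and no other IDR-thresholded summit within 2 kb. It lay 235 bp upstream with a signal of 2032 and rank 549. The replicates placed it at exactly the same base, with a signal of 1221 and rank 536 in replicate 1 and a signal of 819.6 and rank 575 in replicate 3, so its position and rank were closely matched. The starts of Atg2 and its divergent neighbour CG12093 are 331 bp apart, and the summit was 96 bp upstream of CG12093. Replicate 3 alone split off a weaker summit 28 bp upstream of Atg2 (signal 192.4, rank 4101). Atg18a (FBgn0035850, plus strand of 3L, 8186857 to 8191118) encodes a reader of phosphatidylinositol 3-phosphate that partners Atg2, and it shares its promoter region with ERR, the gene of a nuclear receptor known for its control of carbohydrate metabolism. Its strongest summit, with a signal of 901.7 and rank 1919, lay 14 bp upstream of the first of its 2 starts and 172 bp upstream of ERR, whose start is 186 bp away. A second summit 959 bp upstream (signal 476.8, rank 3884) lay in an intron of ERR, 228 bp upstream of an internal ERR start. Both promoter sequences are printed because they are divergent sites of high rank that differ in how the replicates saw them. The Atg2 window holds 18.8% G and C, and the Atg18a stretch ends at the base before the start of transcription.
Atg2 promoter, chr3L:2774053-2774153, plus strand: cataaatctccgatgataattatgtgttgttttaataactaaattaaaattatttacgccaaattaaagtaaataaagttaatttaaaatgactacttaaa
Atg18a promoter, chr3L:8186793-8186856, plus strand: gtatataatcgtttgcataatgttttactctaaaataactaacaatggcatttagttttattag

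At the Atg18a start the peak lists of the replicates differed. Replicate 3 had the summit 2 bp away, with a signal of 331.3 and rank 2205, while replicate 1 had no overlapping peak and its closest summit lay 746 bp away. At the upstream site in ERR both had a peak, of rank 3632 in replicate 1 and 4691 in replicate 3. Over the whole list 307 of 9657 IDR-thresholded peaks (3.18%) overlapped no replicate 1 peak, and most of these were weaker: of the 1919 peaks ranked at or above the Atg18a promoter, 3 overlapped none, and of the 4281 ranked at or above the Atg13 peak, 50 overlapped none. These comparisons were made after the values at both genes had been seen. Every one of the 9657 IDR-thresholded peaks was, with the same summit and signal, among the 9657 strongest pooled peaks. In the peak lists the promoter calls of Atg18a and Atg13 therefore rest on replicate 3 and on the pooled reads. The pooled reads include those of replicate 1, whose own list calls neither gene bound. The pooled signals were 901.7 at Atg18a and 432.7 at Atg13, against 331.3 and 292.1 in replicate 3. Signals are comparable within a list only, and how far replicate 1 reads were enriched at these sites was not tested.

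Atg9 (FBgn0034110, plus strand of 2R, 16294400 to 16297232), the membrane protein that is carried on vesicles to the site of formation, had a single IDR-thresholded summit, 76 bp upstream of its start and 194 bp upstream of its divergent neighbour CG7747. The signal was 457.4 (rank 4054). Replicate 1 gave a signal of 294.4 (rank 3809) at the same base and replicate 3 a signal of 153.0 (rank 5312) at a distance of 6 bp. All 3 genes of this group had an IDR-thresholded summit within 500 bp of a start, against 35.0% of divergent protein-coding genes. Each of these summits lay between the starts of the gene and a divergent neighbour, so it cannot be assigned to the autophagy gene alone. The one at Atg18a overlapped no replicate 1 peak.

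The third group attaches Atg8a to the membrane. Atg5 (FBgn0029943, minus strand of X, 7314622 to 7323770) joins with Atg12 in the complex that directs this attachment. The gene lies inside the long genes CG1677 and lncRNA:CR44357, and starts 444 bp from its divergent neighbour Dok. The strongest of the 16 summits lay 1268 bp upstream of Atg5, with a signal of 3977 and rank 98. It was at the same base in both replicates (signal 2177 and rank 119 in replicate 1, signal 1811 and rank 75 in replicate 3). This site is in an intron of Dok, 824 bp past its start, so that Dok and not Atg5 has the nearest start. A second strong summit, with a signal of 1514 and rank 952, lay inside Atg5, 4494 bp downstream of the start in the last of its 5 introns, and had ranks 887 and 1044 in replicates 1 and 3. Between the starts of Atg5 and Dok lay a faint peak 261 bp upstream of Atg5 in the pooled list (signal 40.4, rank 23886) and another 301 bp upstream in replicate 1 (signal 42.5, rank 16916). Replicate 3 had none between the starts, and its closest upstream summit lay 452 bp from Atg5, 8 bp past the start of Dok in its 5' UTR (signal 15.98, rank 28681).

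Atg4b (FBgn0038325, minus strand of 3R, 15353720 to 15356924) encodes a protease that trims Atg8a before its attachment and releases it later. Its single IDR-thresholded summit lay 136 bp upstream, with a signal of 998.9 and rank 1676. The summits of replicate 1 (signal 554.5, rank 1856) and replicate 3 (signal 440.9, rank 1546) were 27 and 1 bp from it. Hibch, which encodes an enzyme of valine breakdown, starts 305 bp away on the other strand, and the summit was 169 bp upstream of it. No list held any other summit within 2 kb of Atg4b.

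Atg8a (FBgn0052672, minus strand of X, 10764878 to 10768338) encodes the ubiquitin-like protein that coats the autophagosome and is widely used as its marker. It has 3 annotated starts, and its most upstream one is 199 bp from the divergent neighbour BTBD9. The IDR-thresholded summits were not at that start. They lay in the first intron of the longest transcript, 846 and 639 bp downstream of the first start, which is 186 and 393 bp upstream of the middle start, at 10767306. Their signals were 399.8 (rank 4638) and 257.7 (rank 6911), which makes the stronger of them the weakest of the 7 bound promoters. Replicate 1 had both (signals 217.7 and 147.9, at 40 and 47 bp) and so did replicate 3 (signals 197.7 and 160.0, at 1 and 35 bp). No other gene starts within 500 bp of either. The bases at these sites and at the strongest sites of Atg5 and Atg4b are printed together to show the contrast in base composition, with 47.5% and 43.6% G and C at the Atg8a sites against 25.7% at the strong site near Atg5 and 22.8% at Atg4b. Capitals mark the word AATATA or its reverse complement at the Atg5 site and GAGAG, read as its reverse complement, at the Atg8a sites.
Atg5 upstream, in Dok, chrX:7324988-7325088, minus strand: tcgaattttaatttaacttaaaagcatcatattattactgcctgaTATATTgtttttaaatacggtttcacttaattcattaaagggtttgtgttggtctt
Atg4b promoter, chr3R:15357010-15357110, minus strand: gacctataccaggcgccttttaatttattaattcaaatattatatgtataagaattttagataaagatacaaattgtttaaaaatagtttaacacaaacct
Atg8a stronger summit, chrX:10767442-10767542, minus strand: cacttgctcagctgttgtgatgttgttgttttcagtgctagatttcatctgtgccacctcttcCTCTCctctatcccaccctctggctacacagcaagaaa
Atg8a weaker summit, chrX:10767649-10767749, minus strand: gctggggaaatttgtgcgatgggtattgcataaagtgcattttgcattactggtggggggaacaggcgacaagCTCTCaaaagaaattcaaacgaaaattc

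Of the 16 IDR-thresholded summits, 14 had a summit within 250 bp in both replicates, and the exceptions were the promoters of Atg13 and Atg18a in replicate 1. Both Atg101 summits were matched to the same replicate 3 summit, and the stronger of them overlapped no replicate 3 peak, so that by overlap of peaks 13 of the 16 were found in both replicates. Over all IDR-thresholded peaks 94.8% had a summit within 250 bp in both, and the share by overlap was 94.8% as well. The median distance to the matched summit was 11 bp in replicate 1 and 6 bp in replicate 3 for the autophagy genes, and 8 and 9 bp over all peaks matched in both. Of the 14 matched summits, 8 ranked better in replicate 3 and 6 in replicate 1. The median difference in rank was 0.44 on the log2 scale for the autophagy genes and 0.32 over all matched peaks, both taken without sign. The control was shared by the replicates, so this likeness is not that of fully separate experiments.

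**Figure D3:**
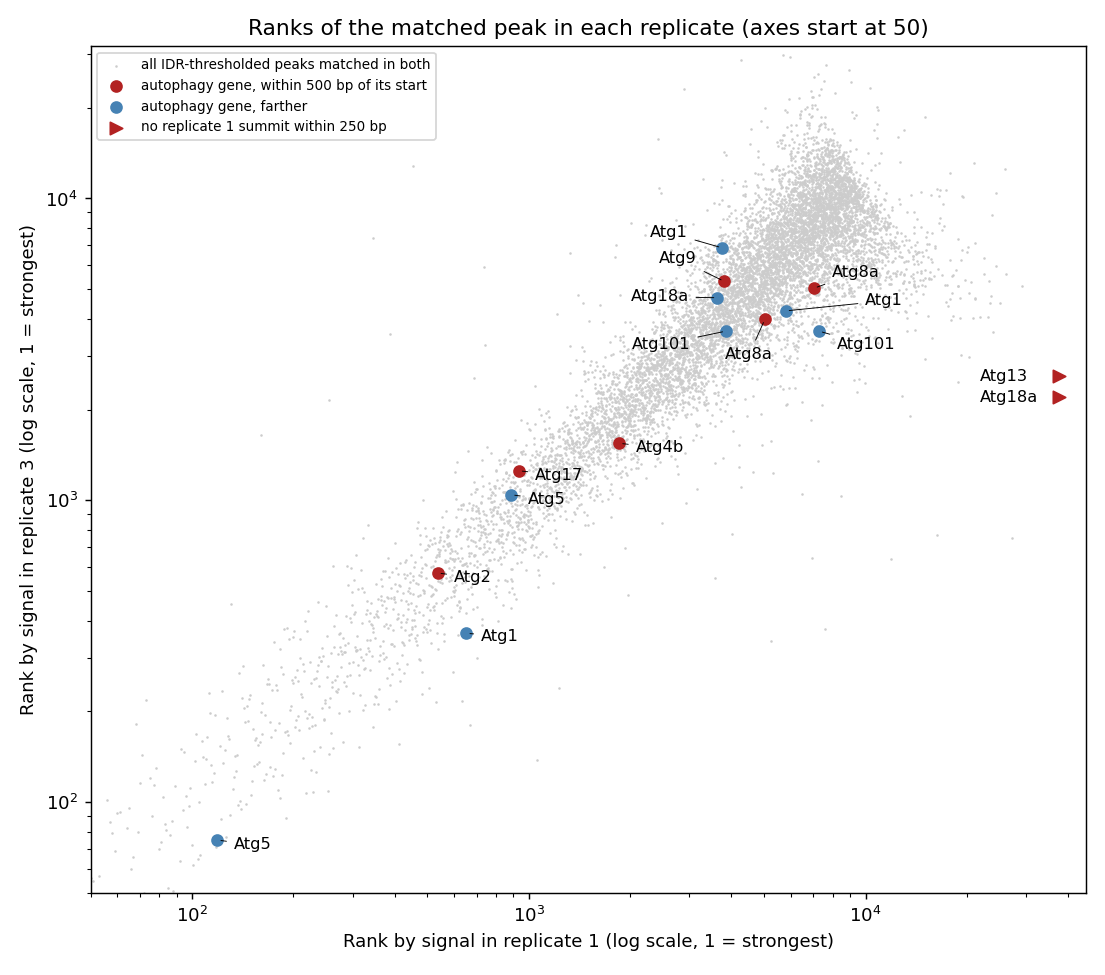
Rank by signal of the matched peak in replicate 1 and replicate 3 (log axes, 1 is the strongest, axes start at 50) for the IDR-thresholded peaks matched in both (grey) and for summits of the autophagy genes (red within 500 bp of their start, blue farther away). Most of the 14 matched summits lie within the grey cloud, and the top summits of Atg5, Atg1 and Atg2 are among the strongest. Triangles at the right edge mark Atg13 and Atg18a, which had no replicate 1 summit within 250 bp.

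The bases at the summits were rich in A and T. Within 50 bp of the 16 summits the median content of G and C was 30.7%, ranging from 15.8% at the upstream Atg1 site to 47.5% at Atg8a, and over all IDR-thresholded summits the median was 29.7%, against 41.6% in windows 1000 bp to one side. The 8 promoter summits had a median of 38.1%, and the 2661 IDR-thresholded summits near protein-coding starts one of 31.7%. Atg2 (18.8%), Atg4b (22.8%) and Atg18a (29.7%) were the low ones among the promoters, and Atg13 and Atg9 (44.6% each) and both Atg8a sites the high ones, with Atg17 between them at 32.7%.

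**Figure D4:**
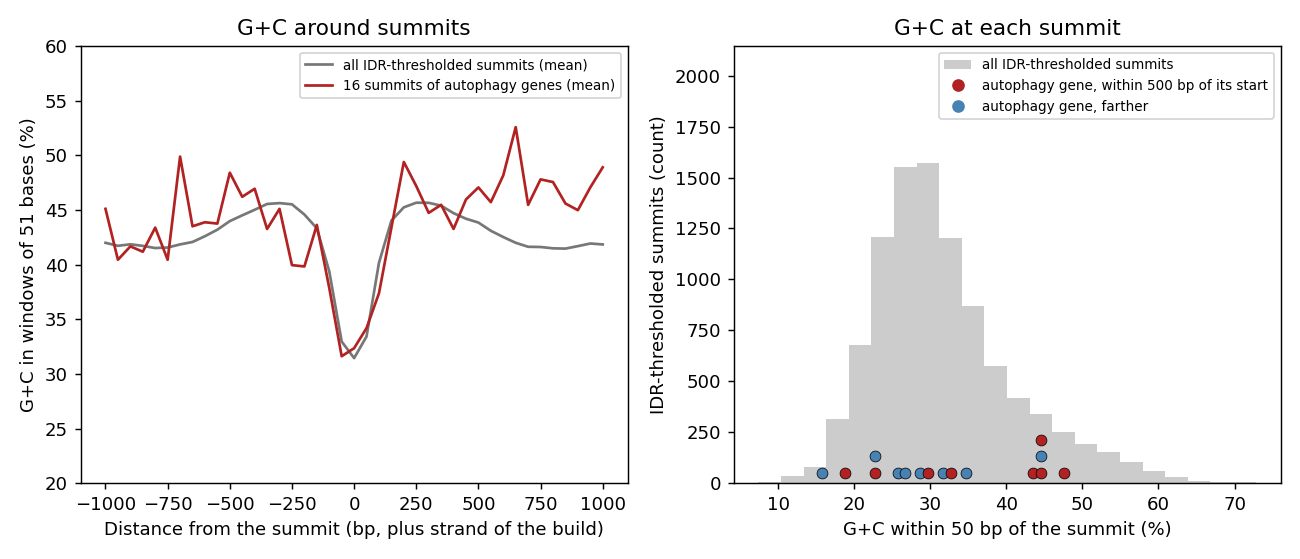
Content of G and C around summits. Left, the mean in windows of 51 bases by distance from the summit (bp) for all IDR-thresholded summits (grey) and the 16 of the autophagy genes (red), both of which dip at the summit; right, the number of IDR-thresholded summits by G and C content within 50 bp (grey bars), with a point for each autophagy summit (red within 500 bp of the start, blue farther away), from 15.8% to 47.5%.

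Short motifs were searched on both strands in the same windows, which reach 50 bp to each side of the summit. The E-box CACGTG, which is bound by Mitf, the fly counterpart of the mammalian regulator of autophagy genes TFEB, was in 0 of 16 windows and in 0.445% of all IDR-thresholded windows. TGTTTAC, a site of the starvation-activated factor Foxo, was in 0 of 16 and in 2.08% of all. AGGTCA, the core of nuclear receptor sites, was in 0 of 16 and in 1.84%. The promoter motifs DRE (TATCGATA, 0.445%) and Motif 1 (GGTCACACT, 0.3003%), the Zelda site CAGGTAG (0.311%) and the repeat CACACACA (1.33%) were in none of the 16 either. GAGAG, read by GAGA factor, was in 3 of 16, at both Atg8a sites and at the weaker Atg101 site, and in 9.34% of all windows. CGATA, the core of BEAF-32 sites and a part of DRE, was in 1 of 16, the ERR site upstream of Atg18a, and in 10.6% of all. The word AATATA, chosen after seeing the data as the 6-base word most in excess at the summits of other genes (27.9% against 11.4% of windows 1000 bp to one side), was in 5 of 16. It was found in none of the 8 windows at promoters of autophagy genes and in 25.8% of windows near protein-coding starts. A match of letters is a description of the window and not of a site in use, and a window without one says nothing about the factor.

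Of 36 further autophagy genes, 12 had an IDR-thresholded summit within 500 bp of a start, 33.3% (exact 95% interval 18.6 to 50.97), against 21.5% of protein-coding genes. Replicate 1 gave 10 of 36 (27.8% against 18.6%), replicate 3 gave 19 of 36 (52.8% against 26.7%), and the pooled list gave 24 of 36 (66.7% against 36.3%). By role these were 2 of 7 genes of conjugation, 3 of 7 of the phosphatidylinositol 3-kinase complexes and their readers, 2 of 10 of fusion with the lysosome, 0 of 2 cargo adaptors, 3 of 6 regulators and 2 of 4 lysosomal genes. Both lists were drawn up by hand and no test of the difference was made. The strongest was SNF4Agamma, the gamma subunit of the energy sensor AMPK, with a signal of 1966 (rank 584, 314 bp upstream).

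The 12 genes are named here by role. In conjugation these were Atg7, the activating enzyme for Atg8a and Atg12 (signal 885.4, rank 1964, summit shared with Sec6), and Atg12 itself, the partner of Atg5 (signal 200.1, rank 8541, shared with CG5645). In the phosphatidylinositol 3-kinase group they were Vps15, its regulatory subunit (645.9), Uvrag (506.6, shared with Drep4) and Rubicon (404.4), a brake on autophagy in mammals. The fusion genes were the SNAREs Snap29 (979.0, shared with CG5554) and Syx17 (296.6). The regulators besides SNF4Agamma were foxo (877.2) and mTor, the nutrient-sensing kinase that holds Atg1 in check (705.5, shared with Vha68-1, which encodes a subunit of the lysosomal proton pump). The lysosomal genes were those of the cathepsins CtsB (356.0, shared with amrt) and CtsL1 (348.3, shared with Rpn13). Of the 12 genes, Atg12 and CtsB had no summit within 500 bp of a start among the 9657 strongest peaks of replicate 1. No IDR-thresholded summit within 500 bp of a start was found for the rest of the 36. In conjugation these were Atg3, Atg4a, Atg8b, Atg10 and Atg16. In the phosphatidylinositol 3-kinase group they were Pi3K59F, Atg6, Atg14 and Atg18b. Among the regulators they were raptor, AMPKalpha and, on chromosome 4, Mitf.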

How the data were processed

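ChIP-seq peak lists of 1 group with 2 replicates were used. Per the README files deposited with the samples, peaks were called for each replicate and for the pooled alignments against 1 control file on assembly dm6, and the IDR-thresholded list was derived from those 3. Per the labels, chromatin was sonicated, with a size range of 200 to 800. For the caller, the aligner, the read filters and their versions: not given in the sources used here. The deposited signal (column 7) is the authors' value per peak, comparable within a list only. The deposited −log10 q-value (column 9) is capped and was not used for ranking. The authors' column 10 gave the summit. No library depth can be had from such lists.

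Gene models came from Ensembl release 115, without transposable elements, and sequences from the RefSeq copy of Release 6. Each summit inside a gene or within 2000 bp was listed, with Python 3.11.15, pandas 2.3.3 and scipy 1.17.1. Replicate summits within 250 bp were matched. Windows of 50 bp to each side of a summit were trimmed so that no UTR base is printed. Shares have exact (Clopper-Pearson) intervals. With 2 replicates and no second condition no test between samples was possible. The counting was tested on planted summits. All 10 genes were named with every IDR-thresholded summit, and genes of the wider list were given a signal where bound. The genes and lists were chosen with earlier results of these data known. The wider list held 36 symbols, all matched, 2 of them by older names.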

Additional observations from a re-analysis of the deposited data

How the results depend on the processing

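The alternatives were promoter windows of 200 and 1000 bp, the stronger 50% of IDR-thresholded peaks, the strongest peaks of each replicate, all pooled peaks, any base of a peak in place of its summit, and shorter flanks. The count of 7 promoter-bound genes stayed between 5 (window of 200 bp, which drops Atg2 and Atg17, or replicate 1 alone) and 9 (pooled). Within the gene body alone 4 genes had an IDR-thresholded summit, with 6 summits in all, against 10 genes and 16 summits with flanks of 2 kb (16.4% and 40.4% of protein-coding genes). The pooled list held 37 summits in those windows. The median rank percentile of 80.1 was 58.0 with the window of 200 bp, which drops Atg2 and Atg17. Ranked within other lists it was 60.3 (stronger 50%) and 86.5 (pooled), and from 75.2 (without replicate 1) to 80.8 (without replicate 3). Percentiles depend on the length of the list, and the genes with a promoter summit also differ between lists. The pooled list adds Atg1 (52.8) and Atg5 (20.4). Of the 36 wider genes, 12 became 24 with the pooled list, and from 10 (without replicate 3) to 19 (without replicate 1), while the share of protein-coding genes went from 21.5% to 36.3%, 18.6% and 26.7% in turn. No paired analysis was possible because there is 1 group. Peak lists cannot show binding below the limit of 30000 peaks, and a gene without a summit may be bound too weakly or in too few cells to be listed.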
